A study of Mus musculus with 12 samples.

Results

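The murine aldo-keto reductase 1C genes Akr1c12, Akr1c13 and Akr1c18 were followed in naive CD4 T cells before and after activation. They are 3 of the 19938 genes with a probe set of their own on the array, and each is read by 1 probe set (10407445 for Akr1c12, 10403303 for Akr1c13 and 10407435 for Akr1c18). They were chosen by gene symbol from earlier results of these same arrays, in which Akr1c12 had already been seen to read lower in transgenic than in WT cells at 24 h. Their differences are therefore given as a description, with the standard error (SE) of the fit and no test. Tests are given for genes of other lists, which serve as context.

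The series holds 12 one-colour arrays of total RNA from C57BL/6 mice. In 3 groups the cells came from mice that carry a transgene for PP2Ac, which is the phosphatase 2A catalytic subunit and the product of Ppp2ca. They were taken unstimulated, called 0 h here, or after stimulation for 6 h or 24 h. In the 3 other groups the cells came from WT mice at the same times. Stimulated cells of both genotypes received anti-CD3 at 0.25 ug/mL and anti-CD28 at 0.5 ug/mL in solution, on plates coated with goat antibodies against hamster immunoglobulin. Each group has 2 arrays, and the title of 1 of them carries the mark Rep. The labels do not give the promoter that drives the transgene or the age of the mice, and they do not say whether arrays are separate mice or cultures, so SEs and p-values measure the spread between these arrays. The source field of the WT arrays reads both WT and transgenic, and their titles read WT.

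Values are log2 signals after quantile normalisation between arrays. The 2 arrays of a group had r of at least 0.992 over all probe sets. Their root mean square difference reached 0.26 among transgenic arrays and 0.33 among WT arrays. Ppp2ca read 13.69 to 13.90 on the 6 transgenic arrays, against 13.15 to 13.42 on the 6 WT arrays, without overlap. The difference was 0.74 ± 0.08 at 0 h, 0.38 ± 0.08 at 6 h and 0.60 ± 0.08 at 24 h (limma adjusted p = 0.055, 1 and 0.28). All 9 measured T cell markers, among them Cd3e and Cd4, read 10.72 to 14.39 on all 12 arrays, above the lower quartile of the probe sets (5.81). The 9 neutrophil markers also lay above it on all arrays. Their mean level was 9.86 to 12.19 on the transgenic arrays, 11.02 to 12.28 on the WT arrays without the mark, and 7.61 to 8.68 on the WT arrays marked Rep, so these last 3 arrays stand apart. In these bulk samples a change in the share of cells that make a transcript and a change in the transcript per cell cannot be told apart.

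Aldo-keto reductases of the 1C family use NADPH or NADH to reduce carbonyl groups of steroids, prostaglandins and xenobiotics, or to oxidise the matching alcohols. Akr1c18 encodes the 20alpha-hydroxysteroid dehydrogenase, which converts progesterone to a metabolite that the progesterone receptor binds only weakly. It is known from the rodent ovary, where prolactin acting through STAT5 holds it down and NR4A1 raises it at the end of pseudopregnancy, and its activity in mouse lymphocytes has long been used as a marker of the response to IL-3. Akr1c12 and Akr1c13 encode closely similar enzymes that act on alcohols and carbonyl compounds. The genes lie side by side on mouse chromosome 13, in the order Akr1c14, Akr1c18, Akr1c13, Akr1c19, Akr1c12, Akr1c6, Akr1c20 and Akr1c21.

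The promoters of the 3 genes are shown because the levels of 2 of them moved together and the third moved apart. Sequences are from RefSeq on GRCm38.p6, 250 bases before to 50 bases after the start of each gene, 5′ to 3′ on the gene's own strand. Akr1c12 and Akr1c18 lie on the minus strand, at chr13:4279350-4279649 and chr13:4150597-4150896, and Akr1c13 lies on the plus strand, at chr13:4190937-4191236. In Akr1c12 and Akr1c13 capitals mark the bases that differ between them, and in Akr1c18 they mark the single match of the NFAT core on the opposite strand.
Akr1c12: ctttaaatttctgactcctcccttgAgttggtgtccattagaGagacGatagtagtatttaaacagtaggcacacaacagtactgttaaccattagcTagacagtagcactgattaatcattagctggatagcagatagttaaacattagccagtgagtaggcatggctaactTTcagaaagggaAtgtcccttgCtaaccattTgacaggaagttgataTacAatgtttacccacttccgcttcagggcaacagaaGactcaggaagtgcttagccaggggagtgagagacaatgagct
Akr1c13: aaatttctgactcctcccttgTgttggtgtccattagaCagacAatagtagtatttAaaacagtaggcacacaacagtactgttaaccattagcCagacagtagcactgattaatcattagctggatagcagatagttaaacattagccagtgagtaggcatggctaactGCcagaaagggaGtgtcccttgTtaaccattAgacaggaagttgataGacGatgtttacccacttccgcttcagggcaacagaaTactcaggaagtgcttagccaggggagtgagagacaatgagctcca
Akr1c18: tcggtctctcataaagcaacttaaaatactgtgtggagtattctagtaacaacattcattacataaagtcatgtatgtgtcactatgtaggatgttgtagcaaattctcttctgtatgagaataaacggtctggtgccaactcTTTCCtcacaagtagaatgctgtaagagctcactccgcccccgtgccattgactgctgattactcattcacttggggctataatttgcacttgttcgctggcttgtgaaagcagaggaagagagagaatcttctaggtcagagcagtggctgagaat

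The windows of Akr1c12 and Akr1c13 were the same at 284 of 297 aligned positions (95.6%), with 12 mismatches and 1 base present only in Akr1c13. Aligned end to end over the whole windows, these 2 were 93.4% identical. Akr1c19, which lies between them, was 56.7% identical with Akr1c12 and 58.5% with Akr1c13. The other 25 of the 28 pairs among the 8 Akr1c promoters in the table were 44.7% to 52.8% identical, the pairs of Akr1c18 among them. 5 motifs were searched on both strands. The NR4A element AAAGGTCA (in 1.51% of all 32851 promoters of the same length), the NRF2 element TGACNNNGC (12.4%), the STAT element TTCNNNGAA (8.3%) and the AP-1 element TGANTCA (7.81%) had no match in any of the 3 windows. The NFAT core GGAAA, in 61.3% of all promoters, matched once in Akr1c18, from position -107 to -103 before the start, and not in Akr1c12 or Akr1c13. The probe sequences were not used here, so how far the probe sets of Akr1c12 and Akr1c13 each bind the other's transcript was not tested.

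**Figure D1:**
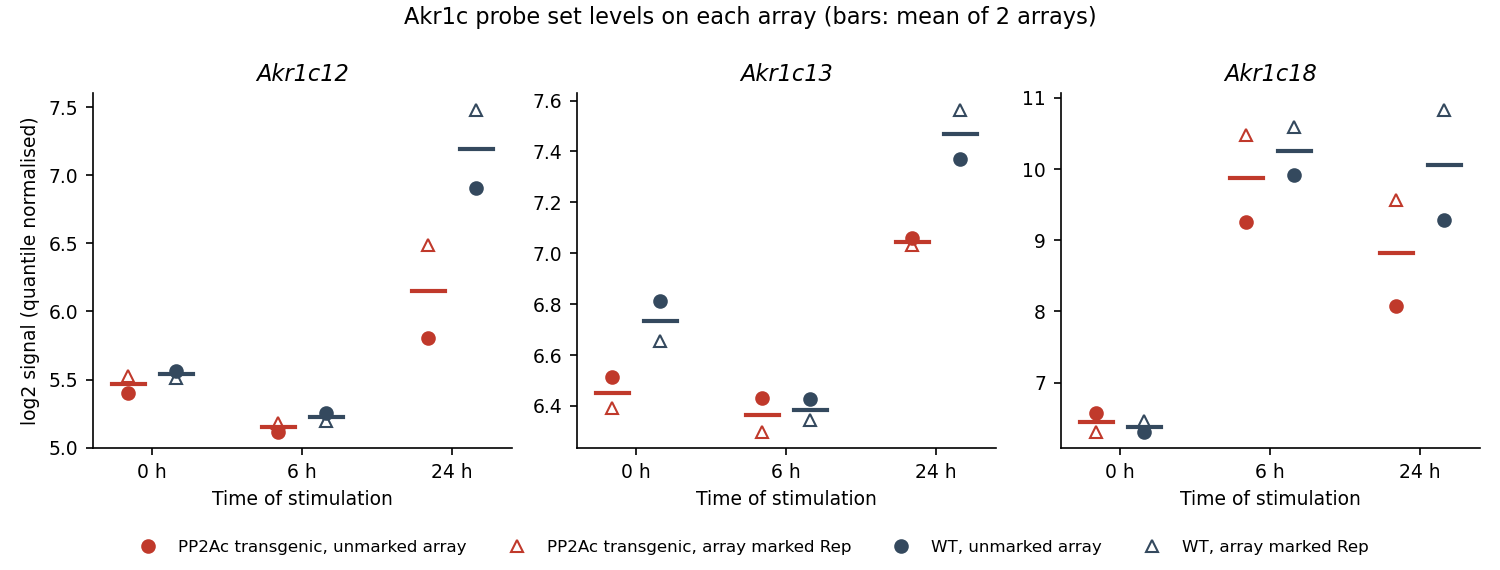
Level of Akr1c12, Akr1c13 and Akr1c18 on each of the 12 arrays. The y axis is the log2 signal after quantile normalisation, with a range of its own in each panel, and the x axis the time of stimulation; red is PP2Ac transgenic and dark blue WT, circles are arrays without the mark Rep, triangles arrays with it, and horizontal bars the mean of 2 arrays. Akr1c18 is higher at 6 h and 24 h than at 0 h in both genotypes. Akr1c12 and Akr1c13 are higher at 24 h than at 0 h and 6 h, and at 24 h both transgenic arrays lie below both WT arrays.

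Of the 3 genes, Akr1c18 had the largest response to stimulation. In transgenic cells it read 6.58 and 6.31 at 0 h, 9.26 and 10.48 at 6 h, and 8.08 and 9.57 at 24 h, the array without the mark first. In WT cells it read 6.31 and 6.45 at 0 h, 9.92 and 10.59 at 6 h, and 9.29 and 10.84 at 24 h. All 8 stimulated arrays lay above all 4 unstimulated ones, and at 6 h and 24 h the array marked Rep was the higher of its pair in both genotypes. Within the array, the probe set stood at percentile 33.1 to 37.4 at 0 h and at percentile 56.2 to 82.0 after stimulation.

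The 6 h response of Akr1c18 was 3.43 ± 0.61 in transgenic cells (10.8-fold) and 3.87 ± 0.61 in WT cells (14.6-fold). At 24 h it was 2.38 ± 0.61 in transgenic cells (5.21-fold) and 3.68 ± 0.61 in WT cells (12.8-fold). Between 6 h and 24 h the mean fell by 1.05 in transgenic cells and by 0.19 in WT cells. The difference of 24 h from 6 h was -1.18 between the transgenic arrays without the mark and -0.91 between those marked Rep, and -0.62 and 0.25 between the WT arrays in the same order.

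In Akr1c18 the genotype difference at 0 h was 0.06 ± 0.61, and the arrays overlapped. At 6 h the transgenic mean was lower by 0.38 on the log2 scale, a difference of -0.38 ± 0.61 that was -0.65 between the arrays without the mark and -0.11 between those marked Rep. At 24 h the difference was -1.24 ± 0.61, or 2.36-fold higher in WT cells. The arrays without the mark differed by -1.22 and those marked Rep by -1.26, yet the groups overlapped, since the transgenic array marked Rep (9.57) read above the WT array without the mark (9.29). The 24 h value moved when single arrays were left out. Each such fit holds the mark Rep unevenly between genotypes, and the marked 24 h arrays read higher in both. It was -0.49 without the transgenic array lacking the mark, -1.99 without the transgenic array marked Rep, -2.01 without the WT array lacking the mark and -0.47 without the WT array marked Rep. The 6 h value was 0.23 without the transgenic array lacking the mark. The SE is pooled over all 6 groups. The standard deviation between arrays was 0.19 in transgenic and 0.10 in WT cells at 0 h, and 1.06 and 1.09 at 24 h. Set against these standard deviations, the SE is too wide for Akr1c18 at 0 h and too narrow at 24 h. The standard deviations take no account of the mark Rep, and like-marked arrays gave 24 h differences close to each other (-1.22 and -1.26).

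Akr1c12, one of the pair with like promoters, was low at 0 h and 6 h and higher at 24 h. In transgenic cells it read 5.40 and 5.53 at 0 h, 5.12 and 5.18 at 6 h, and 5.81 and 6.49 at 24 h. In WT cells it read 5.56 and 5.51 at 0 h, 5.25 and 5.19 at 6 h, and 6.91 and 7.48 at 24 h. The 8 arrays at 0 h and 6 h all lay below the lower quartile of the probe sets (5.81), and the 4 arrays at 24 h lay above it, the lower transgenic one only just. The probe set stood at percentile 25.02 and 36.01 in transgenic cells at 24 h, and at percentile 42.6 and 50.3 in WT cells.

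Between 0 h and 24 h Akr1c12 differed by 0.68 ± 0.22 in transgenic cells and by 1.66 ± 0.22 in WT cells, and these sizes rest on 0 h signals below the lower quartile. The transgenic value was 0.41 between the arrays without the mark and 0.96 between those marked Rep, and the WT value 1.35 and 1.97. At 6 h the levels were lower than at 0 h by a similar amount in both genotypes, with a difference of -0.31 ± 0.22 in transgenic cells and -0.32 ± 0.22 in WT cells. The step from 6 h to 24 h was 0.999 in transgenic cells and 1.97 in WT cells. Leaving out the transgenic 24 h array marked Rep gave a 24 h response of 0.34 in transgenic cells, and leaving out the one without the mark gave 1.02.

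For Akr1c12 the genotype difference was -0.08 ± 0.22 at 0 h and -0.07 ± 0.22 at 6 h. At 24 h the difference was -1.05 ± 0.22, or 2.07-fold higher in WT cells, and both transgenic arrays lay below both WT arrays. It was -1.10 between the arrays without the mark and -0.99 between those marked Rep. Leaving out single arrays moved the value between -1.39 and -0.71. The SE is pooled over all 6 groups. The standard deviation between arrays was 0.48 in transgenic and 0.40 in WT cells at 24 h. It was 0.09 and 0.03 at 0 h, and 0.05 and 0.04 at 6 h. Set against these standard deviations, the SE is too narrow for Akr1c12 at 24 h and too wide at 0 h and 6 h. The standard deviations take no account of the mark Rep, and like-marked arrays gave 24 h differences close to each other (-1.10 and -0.99).

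Akr1c13 followed the course of Akr1c12 over a smaller range. In transgenic cells it read 6.51 and 6.39 at 0 h, 6.43 and 6.30 at 6 h, and 7.06 and 7.03 at 24 h. In WT cells it read 6.81 and 6.65 at 0 h, 6.43 and 6.34 at 6 h, and 7.37 and 7.56 at 24 h. Every array at 24 h lay above every array at 0 h and 6 h. No array lay below the lower quartile, and the probe set stood between percentile 32.9 and 51.3 throughout.

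The 24 h response of Akr1c13 was 0.59 ± 0.10 in transgenic cells (1.51-fold) and 0.73 ± 0.10 in WT cells (1.66-fold). At 6 h the difference from 0 h was -0.09 ± 0.10 in transgenic cells, where the arrays overlapped, and -0.35 ± 0.10 in WT cells, where they did not. Transgenic arrays lay below WT arrays at 0 h, with a difference of -0.28 ± 0.10, and again at 24 h, with a difference of -0.42 ± 0.10 (1.34-fold higher in WT cells). At 6 h the groups overlapped and the difference was -0.02 ± 0.10. The 24 h difference was -0.31 between the arrays without the mark and -0.53 between those marked Rep.

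**Figure D2:**
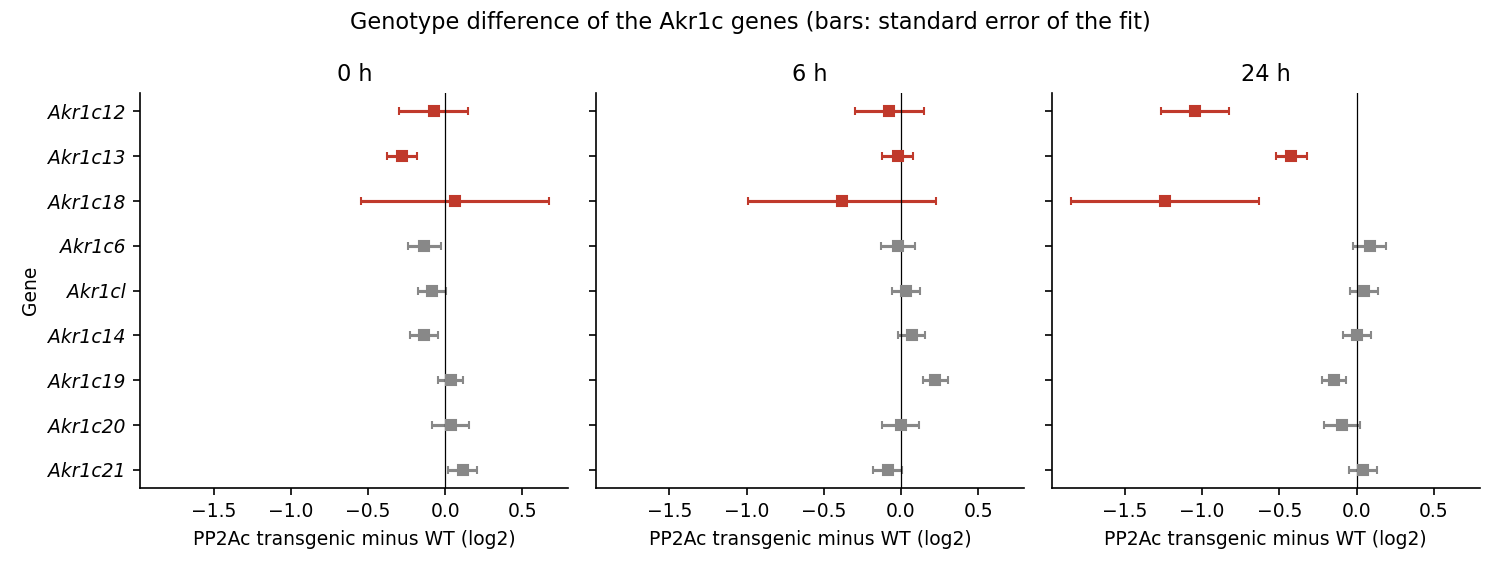
Difference between PP2Ac transgenic and WT cells in the 9 measured Akr1c genes at 0 h, 6 h and 24 h. The x axis is the log2 difference, transgenic minus WT; squares are differences of the means of 2 arrays and bars the standard error of the fit, with Akr1c12, Akr1c13 and Akr1c18 in red and the 6 other genes in grey. At 24 h the 3 red genes lie at -1.05, -0.42 and -1.24, and the grey genes between -0.15 and 0.08.

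The change of the genotype difference over time is the interaction of genotype and time. For the 24 h response it was -0.97 ± 0.31 for Akr1c12, -0.14 ± 0.14 for Akr1c13 and -1.30 ± 0.86 for Akr1c18. For the 6 h response it was 0.00 ± 0.31, 0.26 ± 0.14 and -0.44 ± 0.86 in the same order. Transgenic arrays lay below WT arrays without overlap for 1 of the 3 at 0 h (Akr1c13), 1 at 6 h (Akr1c12) and 2 at 24 h (Akr1c12 and Akr1c13), against 20.5%, 14.1% and 16.2% of all probe sets. Since the genes were chosen from these values, nothing is read from the counts.

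Over time, groups did not overlap at 6 h for Akr1c18, higher in transgenic cells (29.6% of all) and in WT cells (28.4%), nor for Akr1c12, lower in transgenic cells (30.6%), and Akr1c12 and Akr1c13, lower in WT cells (30.1%). At 24 h all 3 genes were higher without overlap in transgenic cells (29.3%) and in WT cells (27.5%). These counts come from the values that chose the genes, and nothing is read from them.

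The 6 other measured Akr1c genes gave no reading of this kind. Akr1c6 encodes a 17beta-hydroxysteroid dehydrogenase, Akr1c14 a 3alpha-hydroxysteroid dehydrogenase and Akr1c21 a 3alpha- and 17alpha-hydroxysteroid dehydrogenase, and Akr1c19, Akr1c20 and Akr1cl are related genes, the last on chromosome 1. All 6 lay below the lower quartile on all 12 arrays, and each varied by 0.23 to 0.34 between its lowest and highest array. The ranges of Akr1c12, Akr1c13 and Akr1c18 were 2.36, 1.27 and 4.53. The test called 0.00854% of all probe sets between genotypes at each time, all of them higher in transgenic cells, and none (0%) in either interaction, with 420 at an unadjusted p under 0.05 for the 6 h response and 625 for the 24 h response. In transgenic cells it called 12.5% of all probe sets higher and 12.9% lower at 6 h, and 12% higher and 11.8% lower at 24 h. In WT cells it called 12.6% higher and 13.9% lower at 6 h, and 12.9% higher and 13.8% lower at 24 h. Of the 6 genes, none passed in any genotype comparison or interaction, and none at 6 h. Akr1c19 passed at 6 h in transgenic cells in 3 of 19 alternatives (the values as deposited, array weights, and trended and robust moderation; limma adjusted p = 0.046, 0.038 and 0.048). At 24 h none passed in transgenic cells and 1 rose in WT cells, again Akr1c19, by 0.26 ± 0.08 (limma adjusted p = 0.036). The 24 h call was lost in 9 of 19 alternatives, among them the values as deposited and leaving out any of the WT arrays at 0 h or 24 h, with adjusted p up to 0.20. The medians of the 6 differences at 24 h were 0.00 in transgenic cells and -0.05 in WT cells, against -0.01 and -0.02 over all probe sets.

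**Figure D3:**
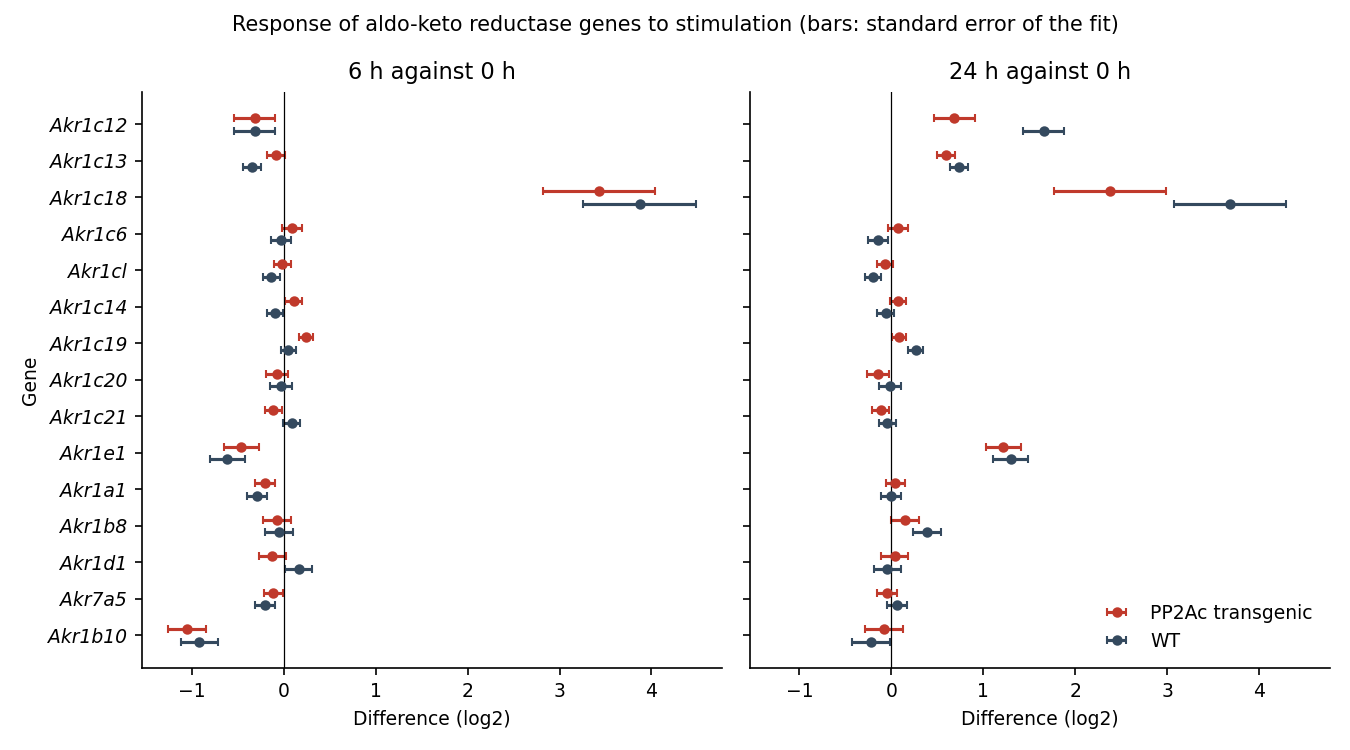
Response of the aldo-keto reductase genes to stimulation, 6 h against 0 h (left) and 24 h against 0 h (right). The x axis is the log2 difference; points are differences of the means of 2 arrays and bars the standard error of the fit, with PP2Ac transgenic cells in red above WT cells in dark blue. Akr1c18 stands at 3.43 and 3.87 at 6 h, Akr1c12, Akr1c13 and Akr1e1 are above 0 at 24 h in both genotypes, and the 6 other Akr1c genes lie between -0.20 and 0.26.

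Among 6 measured aldo-keto reductases outside the 1C family, 2 changed over time, where each comparison called 11.8% to 13.9% of all probe sets each way. Akr1e1, a reductase of the 1E family that lies next to the Akr1c cluster, read 7.09 and 7.35 at 0 h, 6.82 and 6.69 at 6 h, and 8.43 and 8.44 at 24 h in transgenic cells, and 7.28 and 7.52, 7.05 and 6.52, and 8.49 and 8.90 in WT cells. At 24 h it rose by 1.22 ± 0.19 in transgenic cells and by 1.30 ± 0.19 in WT cells (limma adjusted p = 0.0020 and 0.0012). At 6 h it fell by 0.61 ± 0.19 on the log2 scale in WT cells (limma adjusted p = 0.042), a call lost without any single transgenic array, either WT 0 h array or the WT 6 h array marked Rep. Its genotype difference at 24 h was -0.26 ± 0.19 (limma adjusted p = 1). Akr1b10, which belongs to the aldose reductase-like genes, fell at 6 h, with a difference of -1.05 ± 0.20 in transgenic cells and -0.92 ± 0.20 in WT cells (limma adjusted p = 0.0044 and 0.0090); the WT call was lost without the WT 0 h array lacking the mark or the WT 6 h array marked Rep.

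Likeness of course was measured by Pearson r over the 12 arrays, which share 6 groups and the mark Rep, and is given without a test. Akr1c12 and Akr1c13 had r = 0.944, while Akr1c18 had r = 0.28 with Akr1c12 and 0.17 with Akr1c13. Akr1e1 had r = 0.909 with Akr1c12 and 0.944 with Akr1c13. Of 20365 candidate probe sets with 1 symbol, the 5 most like Akr1c12 were Bola1 (0.953), She (0.951), Ccdc134 (0.951), Spata7 (0.949) and Faf1 (0.948). The 5 most like Akr1c13 were Ccdc134 (0.971), Nrg4 (0.966), Slc35d1 (0.960), Pgm1 (0.960) and Tbccd1 (0.958), so Ccdc134 stood in both lists. The 5 most like Akr1c18 were probe sets of Fdft1 (0.983 and 0.976), Prodh (0.979), Npm1 (0.977) and Mrpl36 (0.976). Fdft1 encodes squalene synthase of the sterol pathway, Prodh proline dehydrogenase, and Npm1 nucleophosmin of the nucleolus.

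**Figure D4:**
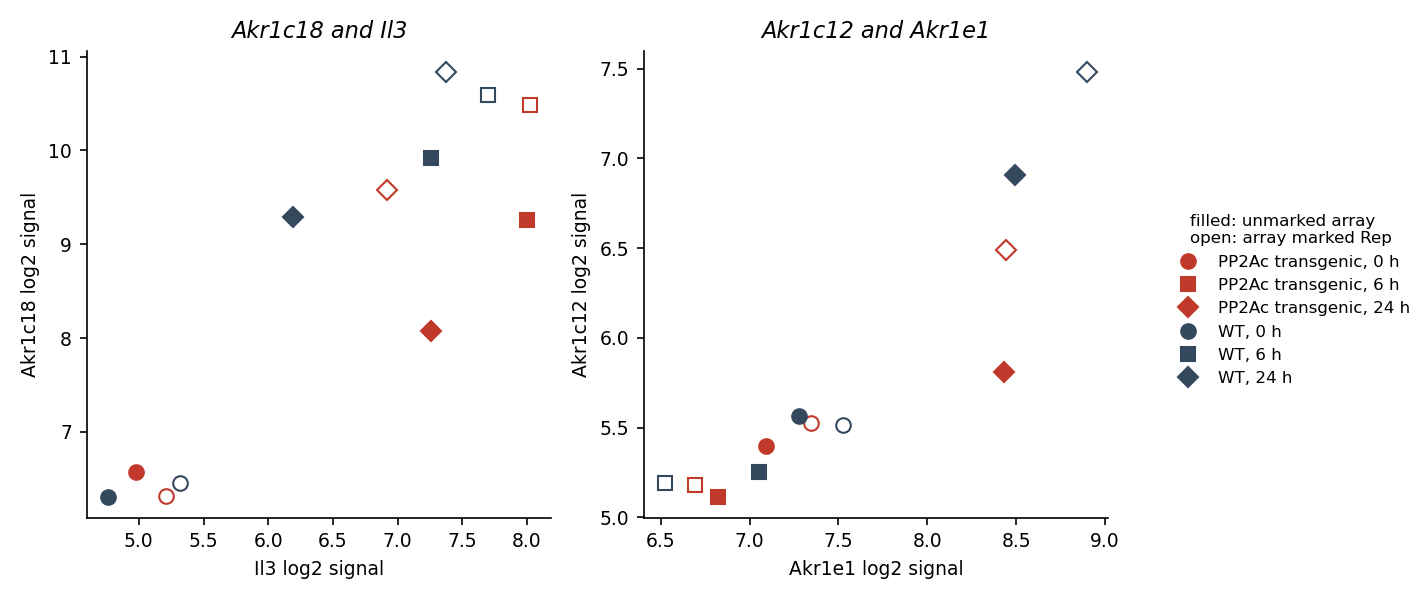
Level of Akr1c18 against Il3 (left) and of Akr1c12 against Akr1e1 (right) on the 12 arrays, both axes in log2 signal. Circles are 0 h, squares 6 h and diamonds 24 h, red is PP2Ac transgenic and dark blue WT, and filled symbols are arrays without the mark Rep. Il3 and Akr1c18 are both low at 0 h (at most 5.32 and 6.58), and the 24 h arrays of Akr1c12 spread from 5.81 to 7.48 while those of Akr1e1 spread from 8.43 to 8.90.

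IL-3 and its relatives were listed because Akr1c18 activity in mouse lymphocytes is known to follow IL-3. Il3 itself read 4.98 and 5.21 at 0 h, 8.001 and 8.02 at 6 h, and 7.26 and 6.92 at 24 h in transgenic cells, and 4.76 and 5.32, 7.26 and 7.70, and 6.20 and 7.38 in WT cells. It rose by 2.92 ± 0.34 at 6 h in transgenic cells and by 2.44 ± 0.34 in WT cells (limma adjusted p = 0.00029 and 0.00073), and at 24 h by 2.00 ± 0.34 and 1.75 ± 0.34 (limma adjusted p = 0.0032 and 0.0051), all from 0 h signals below the lower quartile. Il3 and Akr1c18 had r = 0.888 over the 12 arrays, given without a test. That r takes in the step up from 0 h that both made. At 6 h 29.6% of all probe sets in transgenic cells and 28.4% in WT cells were higher than at 0 h without overlap. At 24 h the mean of Il3 was 0.30 higher in transgenic cells, a difference that did not pass the test (limma adjusted p = 1). The groups overlapped. Il3 was higher in transgenic cells between the arrays without the mark (7.26 against 6.20) and lower between those marked Rep (6.92 against 7.38). Akr1c18 read lower in transgenic cells within both marks. Over all probe sets, 11.8% to 13.9% were called in each direction in each comparison with 0 h. Of the 10 genes on the list, 5 rose and none fell at 6 h in transgenic cells and 4 rose and none fell in WT cells, and at 24 h 3 rose and none fell in each genotype. The 6 h count in transgenic cells was 2 without the 6 h array marked Rep and 3 without either 0 h array. In WT cells the 6 h count ranged from 2 to 6 over 20 alternatives, the 2 being without the 3 WT arrays marked Rep, and at 24 h 1 gene fell without the WT 0 h array marked Rep. Il4 rose by 0.86 ± 0.11 in transgenic cells and 0.90 ± 0.11 in WT cells at 6 h, and Csf2, which encodes GM-CSF, by 1.55 ± 0.35 and 1.48 ± 0.35 (limma adjusted p = 0.00035, 0.00026, 0.010 and 0.013). The Csf2 calls were lost without the array marked Rep at 0 h or at 6 h of the same genotype. The list's median difference at 6 h was 0.53 in transgenic cells and 0.60 in WT cells, against 0.00 and -0.01 over all probe sets.

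The next lists were drawn up around STAT5 and NR4A1, which are known to act on Akr1c18 in the rodent ovary; they also hold STAT5 targets and the 2 other NR4A genes, and the prolactin receptor gene was not measured here. Each comparison with 0 h called 11.8% to 13.9% of all probe sets in each direction. Of 6 measured genes of the JAK2 and STAT5 list, 2 rose and 1 fell at 6 h in transgenic cells and 3 rose and 1 fell in WT cells, and at 24 h 3 rose and 1 fell in each genotype. The 6 h counts that rose ranged from 1 to 4 over 20 alternatives. In transgenic cells the count was 1 without the transgenic 0 h array lacking the mark, the transgenic 6 h array marked Rep or either WT 0 h array, and in WT cells it was 1 without the WT 0 h array lacking the mark or the WT 6 h array marked Rep. Cish, a STAT5 target, rose by 2.15 ± 0.21 in transgenic cells and 2.36 ± 0.21 in WT cells at 6 h (limma adjusted p = 0.00011 and 7.3e-05). Socs2, another STAT5 target, rose by 2.67 ± 0.29 and 3.65 ± 0.29 at 24 h (limma adjusted p = 0.00043 and 9.1e-05). Stat5b fell at 6 h, with a difference of -1.03 ± 0.09 in transgenic cells and -0.995 ± 0.09 in WT cells (limma adjusted p = 7.1e-05 and 7.9e-05). Of the 3 NR4A genes, Nr4a1 rose at 6 h by 0.83 ± 0.16 in transgenic cells and by 1.11 ± 0.16 in WT cells (limma adjusted p = 0.0039 and 0.00077). Nr4a2 fell at 24 h, with a difference of -2.35 ± 0.37 in transgenic cells and -2.27 ± 0.37 in WT cells (limma adjusted p = 0.0021 and 0.0019). Nr4a3 rose at 6 h in WT cells by 1.14 ± 0.29 (limma adjusted p = 0.019), a call lost without the WT array marked Rep at 0 h or 6 h, and its difference in transgenic cells was 0.89 ± 0.29 (limma adjusted p = 0.056).

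Genes of steroid handling moved in both directions, against 11.8% to 13.9% of all probe sets called each way over time. Of 22 measured, 2 rose and 7 fell at 6 h and 3 rose and 4 fell at 24 h in transgenic cells, while 4 rose and 7 fell at 6 h and 3 rose and 6 fell at 24 h in WT cells. In WT cells the 4 that rose at 6 h were 2 without either 0 h array or the 6 h array marked Rep, and the 6 that fell at 24 h were 3 without the array marked Rep at 0 h or 24 h. Hsd17b7, which acts in cholesterol synthesis as well as on oestrone, rose at 6 h by 1.57 ± 0.11 in transgenic cells and 1.66 ± 0.11 in WT cells (limma adjusted p = 3.0e-05 and 2.4e-05). Paqr7, a membrane progestin receptor, fell at 6 h, with a difference of -2.08 ± 0.23 in transgenic cells and -1.90 ± 0.23 in WT cells (limma adjusted p = 0.00022 and 0.00034). Hsd17b11 fell as well, with differences of -1.38 ± 0.14 and -1.43 ± 0.14 (limma adjusted p = 0.00013 and 0.00011). Nr3c1, the glucocorticoid receptor gene, fell at 24 h, with a difference of -0.74 ± 0.12 in transgenic cells and -0.84 ± 0.12 in WT cells (limma adjusted p = 0.0022 and 0.00098).

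Other oxidoreductases of carbonyls, alcohols and aldehydes, the genes of NADPH supply and the NRF2 list were also mixed. Their counts moved with single arrays, and ranges are over 20 alternatives. At 6 h the test called 12.5% of all probe sets higher and 12.9% lower in transgenic cells, and 12.6% and 13.9% in WT cells. At 24 h it called 12% higher and 11.8% lower in transgenic cells, and 12.9% and 13.8% in WT cells. Of 21 measured oxidoreductases, 4 rose (0 to 4) and 3 fell (2 to 5) at 6 h in transgenic cells, and 3 rose (1 to 4) and 3 fell (2 to 4) in WT cells. At 24 h 4 rose (1 to 5) and 1 fell (0 to 3) in transgenic cells, and 4 rose (1 to 6) and 2 fell (0 to 2) in WT cells. The 4 that rose at 6 h in transgenic cells were at most 1 without any one of the 4 arrays compared and 2 without either WT 0 h array, and the 3 in WT cells were 1 without either WT 0 h array. The 4 that rose at 24 h were at most 2 in transgenic cells without either 0 h array or the 24 h array lacking the mark, and 2 in WT cells without the 0 h array lacking the mark or the 24 h array marked Rep. The 1 that fell at 24 h in transgenic cells was lost without the array marked Rep at 0 h or 24 h, and the 2 in WT cells were at most 1 without either 0 h array or the 24 h array marked Rep. Aldh7a1, an aldehyde dehydrogenase, rose at 24 h by 1.21 ± 0.13 in transgenic cells and 1.20 ± 0.13 in WT cells (limma adjusted p = 0.00040 and 0.00027). Of 13 measured NADPH supply genes, 4 rose (2 to 4) and 4 fell (0 to 4) at 6 h in transgenic cells, and 4 rose (2 to 4) and 4 fell (1 to 4) in WT cells. At 24 h 3 rose (2 to 3) and 1 fell (0 to 1) in transgenic cells, and 3 rose (2 to 3) and none fell in WT cells. At 6 h in transgenic cells 2 rose without either 0 h array, and 1 and 0 fell without the 0 h array lacking the mark and the 6 h array marked Rep; in WT cells 2 rose without the 0 h array lacking the mark or the 6 h array marked Rep. Mthfd1, a folate enzyme that makes NADPH, rose at 6 h by 2.59 ± 0.12 in transgenic cells and 2.56 ± 0.12 in WT cells (limma adjusted p = 8.7e-06 and 8.6e-06). Of 25 measured NRF2 genes, 5 rose (0 to 6) and 4 fell (2 to 4) at 6 h in transgenic cells, and 4 rose (1 to 6) and 4 fell (2 to 4) in WT cells. At 24 h 3 rose (0 to 5) and 3 fell (2 to 4) in transgenic cells, and 4 rose (1 to 4) and 2 fell (2 to 4) in WT cells. The 5 that rose at 6 h in transgenic cells were at most 2 without any one of the 4 arrays compared, and the 3 at 24 h at most 1 without the 0 h array marked Rep or either 24 h array. In WT cells 1 rose at 6 h without the 0 h array marked Rep or the 6 h array lacking the mark, and 1 at 24 h without the 0 h array marked Rep or the 24 h array lacking the mark. Bach1, a repressor of NRF2 targets, fell at 24 h, with a difference of -1.16 ± 0.11 in transgenic cells and -1.30 ± 0.11 in WT cells (limma adjusted p = 0.00026 and 9.8e-05). In these lists, and in the IL-3, STAT5 and NR4A lists, no gene passed the test in any genotype comparison or interaction. Of the 23410 probe sets with a symbol, none was called lower in transgenic cells at any time in the main fit.

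The genes that flank the Akr1c cluster did not share one course. Before the cluster, Net1 rose at 24 h by 0.55 ± 0.10 in transgenic cells and 0.46 ± 0.10 in WT cells (limma adjusted p = 0.0034 and 0.0065), the WT call being lost without the WT 24 h array marked Rep. Calm4, Calm5, Tubal3 and Ucn3 did not pass at either time. After the cluster, Akr1e1, Pitrm1 and Pfkp rose at 24 h and Klf6 fell, while Adarb2 did not pass. Pfkp, a phosphofructokinase of glycolysis, rose by 1.18 ± 0.19 in transgenic cells and 1.21 ± 0.19 in WT cells (limma adjusted p = 0.0025 and 0.0017). Klf6, a zinc finger factor, differed by -1.56 ± 0.18 in transgenic cells and -1.74 ± 0.18 in WT cells (limma adjusted p = 0.00058 and 0.00025). None of these 10 flanking genes passed the test between genotypes at any time. Without overlap, Tubal3 read lower in transgenic cells at 0 h, 6 h and 24 h (-0.22, -0.21 and -0.17), on signals below the lower quartile. At 24 h Akr1e1 (-0.26), Ucn3 (-0.18) and Pitrm1 (-0.16) were also lower without overlap. Klf6 at 24 h (0.22) and Ucn3 at 0 h (0.16) were higher without overlap. Of all probe sets, 20.5%, 14.1% and 16.2% lay lower without overlap at 0 h, 6 h and 24 h.

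Markers of other cells were present on these arrays, and their part in the Akr1c values was not tested. At 24 h the mean of the 9 neutrophil markers was 10.42 and 9.86 in transgenic cells, and 11.02 and 7.61 in WT cells. The 6 monocyte markers averaged 9.64 and 9.61 in transgenic cells, and 9.80 and 7.94 in WT cells. Of the 8 mast cell and basophil markers, Mcpt4 lay below the lower quartile on all 12 arrays and 6 lay above it on all 12, and the list averaged 8.02 and 7.82 in transgenic cells at 24 h, and 8.03 and 7.35 in WT cells. The 5 NK cell markers averaged 7.01 and 6.79 in transgenic cells, and 6.34 and 6.61 in WT cells, and the 2 CD8 genes 11.02 and 10.18, and 10.27 and 9.88. The 6 dendritic cell markers averaged 7.13 and 7.24 in transgenic cells, and 7.05 and 6.83 in WT cells, and the 5 B cell markers 11.31 and 11.17, and 11.04 and 10.53. The NK cell, dendritic cell and B cell lists were thus higher on both transgenic arrays than on both WT arrays at 24 h. The B cell list averaged 10.95 and 11.02 at 0 h and 9.72 and 9.98 at 6 h in transgenic cells, and 10.84 and 10.98 at 0 h and 9.47 and 10.12 at 6 h in WT cells. It was thus lower at 6 h than at 0 h and higher again at 24 h, as Akr1c12 and Akr1c13 were on average. The T cell list was also lower at 6 h than at 0 h, but at 24 h it stayed below its 0 h level in both genotypes. Over the 3 times it read 13.45, 12.89 and 13.24 on the transgenic arrays without the mark. On the transgenic arrays marked Rep it read 13.42, 12.78 and 13.21. The WT arrays read 13.46, 12.88 and 13.26 without the mark, and 13.47, 13.04 and 13.11 with it. On the WT arrays marked Rep the B cell list was lower at 24 h (10.53) than at 0 h (10.98). The 7 markers of antigen-experienced T cells averaged 10.20 and 10.10 in transgenic cells at 24 h, and 10.18 and 9.82 in WT cells, and the 4 erythroid markers 6.98 and 6.94, and 6.96 and 6.95. Without the 3 WT arrays marked Rep, which were low in neutrophil and monocyte markers, the 24 h genotype difference was -0.76 for Akr1c12, -0.32 for Akr1c13 and -0.47 for Akr1c18. That setting keeps the transgenic arrays marked Rep, so the mark is unevenly shared between genotypes. Between the 24 h arrays without the mark the differences were -1.10, -0.31 and -1.22 in the same order.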

How the data were processed

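For 28853 probe sets and 12 arrays the deposited table gives log2 values between 3.49 and 15.38. The authors' summarisation and normalisation are not given in the sources used here; per the labels, cDNA was end-labelled with biotin and total RNA was purified with TRIZOL and Qiagen columns. Array medians ran from 7.39 to 7.50, so values were quantile normalised between arrays. Gene symbols came from the platform annotation, updated by Entrez number from RefSeq; 91 were not found there. Of all probe sets, 21789 had 1 symbol, 1621 several and 5443 none, and the 23410 with a symbol were tested.

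1 fit in limma 3.58.1 (R 4.3.3) held all 12 arrays and 6 group means (6 residual and 3.05 prior degrees of freedom), with Benjamini-Hochberg adjusted p under 0.05 over all 23410 probe sets in each of 9 comparisons. Differences are log2 ± SE, n = 2 arrays per group, and the SE of a probe set is pooled over all 6 groups. In simulated data for the 24 h genotype comparison (23410 probe sets, 50 changed per size), it recovered 30% of changes of 0.5, 82% of 1, 92% of 2 and 80% of -1, with 8 false among 150 calls. The noise was drawn independently for each array, while same-marked real arrays deviated together. The planted changes far outnumbered the 2 calls of the real comparison, so these shares do not show what it could detect. In the real comparison Ppp2ca differed by 0.60 and did not pass.

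The members and the 19 gene lists (188 entries, 173 measured, 1 probe set per gene) were chosen with earlier results of these data known. Members and other Akr1c genes are all named; of other lists, only genes among the 4 smallest p in a comparison; also Ppp2ca, the 5 probe sets most like each member and the 5 measured genes on each side of the cluster. All 5 B cell, 6 dendritic cell, 4 erythroid and 7 antigen-experienced T cell markers measured lay above the lower quartile on all 12 arrays. The alternatives tried were median centring, the deposited values unchanged, no dim probe sets, all rows, trended and robust moderation, array weights, the mark Rep as a block, and leaving out each array or the 3 WT arrays marked Rep. Python 3.11.15, pandas 2.3.3, numpy 2.4.6, matplotlib 3.10.9 and Biopython 1.88 were used for promoters and plots.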

Additional observations from a re-analysis of the deposited data

Results flagged for a closer look

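In 2 of the 6 other Akr1c genes the arrays of the genotypes did not overlap at several times and lay in opposite directions between them. Akr1c14 differed by -0.13 (transgenic minus WT) at 0 h and by 0.07 at 6 h. Akr1c19 differed without overlap at all 3 times, by 0.034 at 0 h, 0.22 at 6 h and -0.15 at 24 h, so that its 24 h value was opposite to both others. Both genes read below the lower quartile of the probe sets on all 12 arrays. Whether the differences themselves differ between 0 h and another time was covered by the interactions, in which no probe set was called (420 and 625 at an unadjusted p under 0.05); the difference between 6 h and 24 h was not tested. Groups of 2 arrays are too small to look for outlying samples.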

How the results depend on the processing

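The 27 differences of Akr1c12, Akr1c13 and Akr1c18 gave 459 alternative values, of which 12 changed sign, none in a comparison whose groups did not overlap. Leaving out or weighting arrays cannot change the sign of such a comparison, so nothing is read from this. Without the 3 WT arrays marked Rep, the 24 h genotype differences were -0.76 for Akr1c12, -0.32 for Akr1c13 and -0.47 for Akr1c18, the 24 h responses in WT cells 1.35 for Akr1c12 and 0.56 for Akr1c13, and the interactions at 24 h -0.66 for Akr1c12 and 0.035 for Akr1c13. That setting keeps the transgenic arrays marked Rep. In that setting 5 probe sets were called between genotypes at 24 h and 2870 in WT cells at 24 h against 0 h (6245 with all arrays). Leaving out 1 array in turn, with the lone array of its group assumed to vary like the others, gave 24 h genotype differences from -1.39 to -0.71 for Akr1c12, -0.52 to -0.32 for Akr1c13 and -2.01 to -0.47 for Akr1c18. At 6 h it gave -0.99 to 0.23 for Akr1c18. A fit without 1 array of the groups compared holds the mark Rep unevenly between genotypes. The 24 h responses in transgenic cells ranged from 0.34 to 1.02 for Akr1c12 and 1.63 to 3.13 for Akr1c18, and in WT cells from 1.37 to 1.94, 0.64 to 0.83 for Akr1c13 and 2.91 to 4.46 for Akr1c18. Interactions at 24 h ranged from -1.31 to -0.63, -0.24 to -0.044 and -2.07 to -0.53. Calls ranged from 2 to 6 between genotypes at 24 h (6 without the transgenic 24 h array marked Rep), 3077 to 5498 in transgenic cells at 24 h against 0 h, and 0 to 1 in the 6 h interaction. Of 169 calls of genes of the lists and flanking genes, 88 held under all alternatives, and none of the 3554 alternative values reversed. Leaving out arrays cannot reverse a difference between groups that do not overlap, so nothing is read from the lack of reversals. Leaving out the 40% dimmest probe sets left out Akr1c12 and Akr1c13 themselves.

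With the mark Rep as a replicate block, 4 probe sets were called between genotypes at 0 h, 4 at 6 h and 4 at 24 h, against 2 each without it, and differences kept their values. With 2 arrays per group the labels do not show that the mark pairs samples; same-marked arrays deviated together in all 15 pairs of groups, with correlations of 0.138 to 0.591. The cause of these changes was not tested. The number of arrays, and for Akr1c12 before 24 h the low signal, limits the precision.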
